A study of Mus musculus with 9 samples.

Results

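The genes described here are 8 genes of adenosine and endocannabinoid signalling, chosen by symbol: the adenosine receptors Adora1 and Adora2a, the adenosine-forming enzyme Nt5e, the cannabinoid receptor Cnr1, and the endocannabinoid enzymes Faah, Mgll, Dagla and Napepld. They were followed in 3 regions of the mouse forebrain: BNST, the bed nucleus of the stria terminalis in the extended amygdala; NAc, the nucleus accumbens or ventral striatum; and dStr, the dorsal striatum. The labels list 3 biological replicates for every region, and 1 Affymetrix Mouse430_2 array was run for each. Tissue was punched from chilled coronal slices 300 µm thick, and 10 ng of total RNA per sample was amplified and biotin-labelled. The labels give no strain, age, sex, genotype or drug, and do not say whether the replicates came from separate animals, so p-values measure the spread between these samples, which may be in part technical. Of the 8 genes, 6 had a probe set given their symbol alone in the probe annotation. They had 13 probe sets among the 45037 in the deposited table. Adora1 and Adora2a were not matched and were not analysed here. Dim probe sets were dropped by asking for values over an array's 40th percentile on 3 or more arrays, and 10 of the 13 passed. They represent 5 genes among 14208 tested, and Napepld fell below the filter.

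Endocannabinoids are lipid messengers that a neuron releases from its dendrites and cell body to act backwards on the axon terminals contacting it. Cnr1 encodes the CB1 receptor, a receptor coupled to inhibitory G proteins that sits on axon terminals and reduces transmitter release, and in the striatum it is made by the GABAergic projection neurons and carried on their axons. Dagla makes the messenger 2-arachidonoylglycerol and Mgll breaks it down, while Napepld forms anandamide, another such messenger, from a membrane lipid and Faah hydrolyses it. Adenosine arises outside cells when Nt5e, the ecto-5′-nucleotidase, cleaves AMP, and its receptors raise or lower cyclic AMP in striatal neurons.

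Sequences around the transcription starts were taken from RefSeq on build GRCm38.p6, in windows of 250 bases before to 50 bases after each start. They matched 5 of the 6 measured genes with 8 windows, all except Dagla. The windows of Cnr1 and Mgll are shown because a probe set of each was lower in BNST than in dStr and because both hold the E-box letters CACGTG. They were picked for that motif, so its presence in both is no result about the members lower in BNST. A probe set of Nt5e was lower in BNST too, and its window lacks CACGTG. Dagla, also lower, has no window. The Cnr1 window lies at chr4:33924394-33924693 on the plus strand and the Mgll window at chr6:88724162-88724461 on the plus strand. Capitals mark matches of the 6 motifs searched on both strands.
Cnr1: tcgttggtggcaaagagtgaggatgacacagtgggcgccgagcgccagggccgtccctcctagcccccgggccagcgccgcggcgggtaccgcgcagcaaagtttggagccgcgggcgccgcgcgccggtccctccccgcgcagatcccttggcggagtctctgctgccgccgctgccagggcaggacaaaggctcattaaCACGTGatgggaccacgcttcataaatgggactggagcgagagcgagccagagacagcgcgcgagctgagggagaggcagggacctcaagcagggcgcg
Mgll: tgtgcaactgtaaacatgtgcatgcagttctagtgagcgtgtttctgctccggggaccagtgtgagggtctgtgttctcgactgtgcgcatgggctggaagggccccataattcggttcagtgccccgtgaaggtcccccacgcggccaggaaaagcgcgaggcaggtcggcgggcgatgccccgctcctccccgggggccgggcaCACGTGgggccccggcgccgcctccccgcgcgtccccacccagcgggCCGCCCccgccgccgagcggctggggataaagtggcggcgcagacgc
The motifs were the Sp1 box GGGCGG, the CCAAT box, the TATA box written as TATAAA, the cyclic AMP response element TGACGTCA with its part TGACG counted apart, and the E-box CACGTG, which is its own reverse complement. In these 2 windows CACGTG matched 1 time each, and GGGCGG matched 1 time in the Mgll window, on the minus strand, with no overlap between them. CACGTG occurred in 7.15% of the 32851 windows of 27025 genes, GGGCGG in 35.7%, CCAAT in 37.4%, TATAAA in 13.6%, TGACGTCA in 1.79% and TGACG in 20.8%. The GC content was 69.0% in the Cnr1 window and 70.0% in the Mgll window, against a median of 52.7% over all windows. The match describes the letters only. No binding was measured here, and the other windows of the members, those of Faah, Napepld and Nt5e included, lack CACGTG.

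Array medians lay between 93.9 and 102 intensity units, and every array had a floor of 15, shared by 2270 to 2699 of its probe sets. The correlation across genes was 0.909 to 0.981 between arrays of 1 region and 0.843 to 0.965 between arrays of different regions. BNST 1 stood nearest to NAc 3 (r = 0.965) and further from BNST 2 (r = 0.934) and BNST 3 (r = 0.948). NAc 1 correlated at 0.909 with NAc 3 and at 0.938 with NAc 2, while NAc 2 and NAc 3 correlated at 0.964. BNST 1 was thus nearest to an array of another region, and NAc 1 to NAc 2, of its own region. Calls on the members that change without BNST 1 and NAc 1 are given with and without them. This pair was chosen with earlier results known. Without it 15.5%, 29.2% and 4.98% of all genes passed for BNST against NAc, BNST against dStr and NAc against dStr. With all arrays 2.24%, 14.3% and 2.05% passed. The summed intensity of 8 genes that mark striatal projection neurons was 4092 to 8486 in BNST, 13129 to 18062 in NAc and 24826 to 27280 in dStr, and of these genes 8 of 8 were lower in BNST than in dStr. In punches, fewer cells of a type and less RNA per cell cannot be told apart.

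Cnr1, the CB1 receptor, was the member with the clearest regional pattern, lower in both BNST and NAc than in dStr. Its brighter probe set, 1434172_at, read 791, 425 and 437 intensity units in BNST, 274, 499 and 557 in NAc, and 1497, 1601 and 2189 in dStr. The highest BNST array, at 791, lay below the lowest dStr array, at 1497, and BNST and NAc overlapped. Its second probe set, 1419425_at, read 108, 122 and 118 in BNST, 106, 110 and 117 in NAc, and 171, 172 and 224 in dStr. Here too every dStr array was above all 6 others, and dStr 3 was the highest array on both probe sets.

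On 1434172_at the mean intensity was 551 ± 208 in BNST, 443 ± 149 in NAc and 1762 ± 373 in dStr (SD, n = 3 each). Cnr1 was 3.22-fold lower in BNST than in dStr, a difference of -1.69 on the scale of log2(intensity + 16) (SE 0.30, limma adjusted p = 0.00434 over all genes). It was 3.98-fold lower in NAc than in dStr (-1.99, SE 0.30, limma adjusted p = 0.0074). Between BNST and NAc the difference of 0.30 did not pass (SE 0.30, limma adjusted p = 0.792), with a 95% interval of -0.36 to 0.97. The dimmer probe set differed in the same direction by less, 1.54-fold lower in BNST (limma adjusted p = 0.0136 over all probe sets) and 1.60-fold lower in NAc (limma adjusted p = 0.0383) than in dStr. The 2 probe sets correlated at 0.905 over the 9 arrays.

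The Cnr1 gene-level calls held in all 21 alternative settings, with differences of -1.97 to -1.16 for BNST and -2.18 to -1.34 for NAc against dStr. Without BNST 1 and NAc 1 the BNST minus NAc difference was -0.28 rather than 0.30 and did not pass (limma adjusted p = 0.369). The NAc call on 1419425_at was the weak one: it passed in 7 of 19 alternatives, was lost when any array other than BNST 1 was left out, and had a limma adjusted p of 0.166 without dStr 3. The BNST call on 1419425_at was lost without BNST 3 (limma adjusted p = 0.0525) or dStr 3 (0.0598). In the fit over probe sets in place of genes, 1434172_at lost the NAc call with no filter on dim probe sets and without dStr 3 (limma adjusted p of up to 0.0731).

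**Figure D1:**
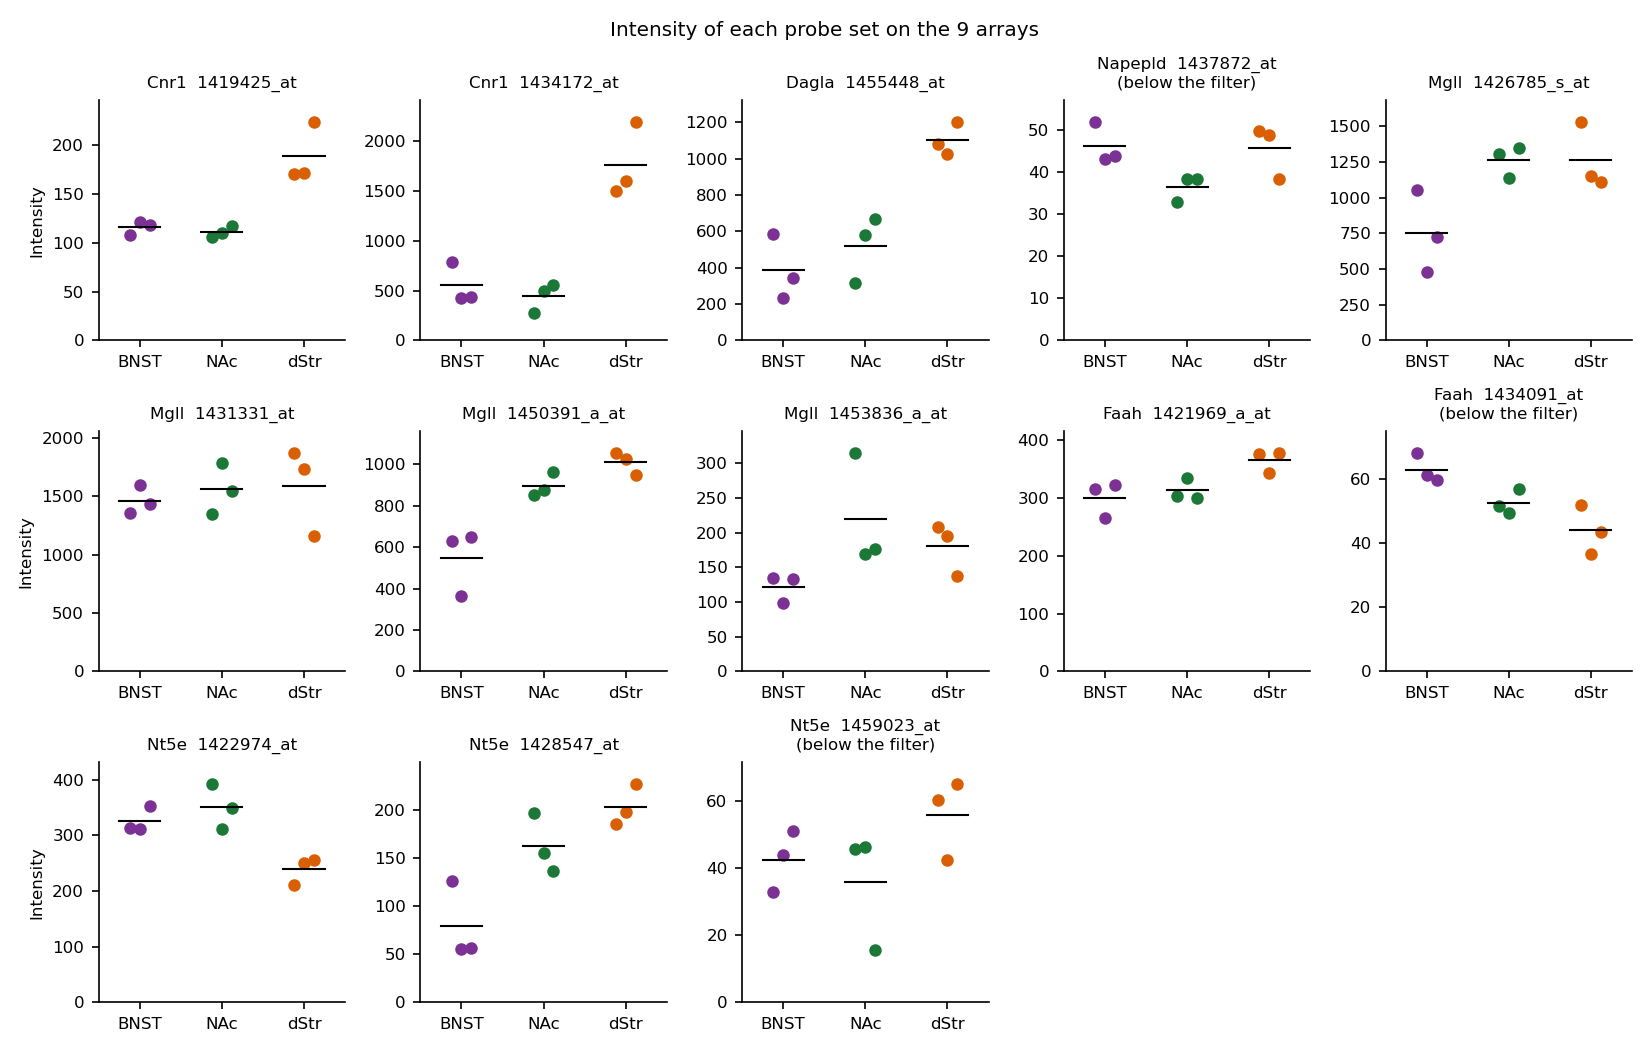
Intensity of each of the 13 probe sets of the 6 measured genes, 1 panel per probe set, with 1 point per array (BNST, NAc and dStr, 3 arrays each, replicate order left to right within a region) and a line at the region mean. On Cnr1 1434172_at the dStr arrays sit between 1497 and 2189, above every BNST and NAc array, whereas Mgll 1431331_at overlaps in all 3 regions and the Nt5e panels run in opposite directions.

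Dagla, which synthesises 2-arachidonoylglycerol, was lower in BNST than in dStr, and BNST overlapped NAc. Its probe set 1455448_at read 586, 236 and 346 in BNST, 315, 581 and 669 in NAc, and 1079, 1024 and 1202 in dStr. The dStr arrays stood above the 6 others without overlap, and BNST 1 and NAc 1 each lay within the range of the other region. Means were 389 ± 179 in BNST, 522 ± 184 in NAc and 1101 ± 91.2 in dStr (SD, n = 3 each).

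Dagla was 2.93-fold lower in BNST than in dStr (-1.55 on the log2 scale, SE 0.32, limma adjusted p = 0.00973). That call held in all 21 alternatives, with a limma adjusted p of up to 0.0444, without dStr 3. Settings on the choice of probe set left its values as they were, since Dagla had no other probe set. The NAc minus dStr difference of -1.12 did not pass (2.17-fold, SE 0.32, limma adjusted p = 0.139), although the arrays did not overlap, nor did the BNST minus NAc difference of -0.43 (SE 0.32, limma adjusted p = 0.687, 95% interval -1.15 to 0.28). Each of these passed in only 1 of 21 alternatives, the fit without BNST 1 and NAc 1. Those arrays made BNST and NAc overlap on Dagla, so the separation of these regions in that fit follows from leaving them out. The differences there were -1.08 between BNST and NAc (limma adjusted p = 0.00496) and -0.80 between NAc and dStr (limma adjusted p = 0.0239). In that fit 15.5% and 4.98% of all genes passed in these comparisons. In the fit over probe sets the BNST call was lost without dStr 3 (limma adjusted p = 0.0515).

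Napepld, the phospholipase that releases anandamide from its membrane precursor, was dim. Its probe set 1437872_at read 51.8, 43.1 and 43.7 in BNST, 32.8, 38.4 and 38.2 in NAc, and 49.6, 48.7 and 38.4 in dStr, all below the 40th percentiles of 71.5 to 76.6. It was not tested. The BNST arrays were all above the NAc arrays, and dStr overlapped both.

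Mgll, the serine hydrolase that ends 2-arachidonoylglycerol signalling, had 4 kept probe sets that did not behave alike. The one with the highest mean, 1431331_at, represented the gene and read 1360, 1594 and 1432 in BNST, 1352, 1782 and 1549 in NAc, and 1870, 1736 and 1160 in dStr. All 3 regions overlapped, and the differences were -0.09 between BNST and NAc (limma adjusted p = 0.931), -0.09 between BNST and dStr (limma adjusted p = 0.795) and -0.00 between NAc and dStr (limma adjusted p = 0.997). With quantile normalisation the first 2 were 0.02 and 0.01, so their sign is not settled.

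The other 3 Mgll probe sets were lowest in BNST. Probe set 1450391_a_at read 628, 363 and 649 in BNST, 851, 878 and 964 in NAc, and 1055, 1026 and 949 in dStr. BNST lay below both other regions on every array, and NAc and dStr overlapped. It was 1.88-fold lower in BNST than in dStr (-0.91, limma adjusted p = 0.0149 over all probe sets; 0.0609 without dStr 1). The BNST minus NAc difference of -0.74 did not pass with all arrays (limma adjusted p = 0.112) and was -0.90 without BNST 1 and NAc 1 (limma adjusted p = 0.0289).

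Probe set 1426785_s_at read 1054, 482 and 728 in BNST, 1303, 1140 and 1350 in NAc, and 1530, 1149 and 1109 in dStr. Probe set 1453836_a_at read 135, 98.9 and 133 in BNST, 315, 170 and 176 in NAc, and 209, 196 and 137 in dStr. On both, every BNST array was below every NAc and dStr array, yet no comparison passed with all arrays. The closest was -0.78 between BNST and dStr on 1426785_s_at (limma adjusted p = 0.0659), which passed with the replicate number as a block (0.0465), without BNST 1 (0.00871) and without BNST 1 and NAc 1 (0.00394). Without BNST 1 and NAc 1, limma calls also appeared for 1453836_a_at between BNST and dStr (-0.57, adjusted p = 0.049) and for 1426785_s_at between BNST and NAc (-1.05, adjusted p = 0.0144). Leaving out BNST 1 alone gave 1426785_s_at the same call (-1.07, limma adjusted p = 0.0242).

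The log2 difference of 1431331_at minus 1450391_a_at within each array was 1.10 to 2.09 in BNST, 0.66 to 1.01 in NAc and 0.28 to 0.82 in dStr. BNST did not overlap either region (exact permutation test, 2-sided, p = 0.1, the smallest p that 3 against 3 arrays allow). For 1431331_at minus 1426785_s_at BNST overlapped both NAc and dStr (exact permutation p = 0.2 each), and for 1431331_at minus 1453836_a_at it overlapped NAc (exact p = 0.2) and not dStr (exact p = 0.1). Averaging the kept Mgll probe sets gave -0.57 between BNST and dStr (limma adjusted p = 0.0393). The call on Mgll therefore depends on which probe set stands for the gene. Over the 9 arrays 1426785_s_at and 1450391_a_at correlated at 0.918, and 1431331_at correlated with the other 3 probe sets at 0.12 to 0.148.

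Faah, the amide hydrolase that inactivates anandamide, differed little. Its probe set 1421969_a_at read 316, 265 and 322 in BNST, 304, 335 and 301 in NAc, and 377, 344 and 378 in dStr. All dStr arrays were above the others, by a small margin, with means of 301 ± 31 in BNST, 313 ± 18.9 in NAc and 366 ± 19.5 in dStr (SD, n = 3 each). The differences from dStr were -0.27 for BNST (limma adjusted p = 0.182, 95% interval -0.56 to 0.01) and -0.22 for NAc (limma adjusted p = 0.534). The other probe set, 1434091_at, stayed below the filter at 68.1, 61.2 and 59.6 in BNST, 51.5, 49.3 and 57.0 in NAc, and 52.0, 36.6 and 43.4 in dStr. Its order was the opposite one, with BNST highest.

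**Figure D2:**
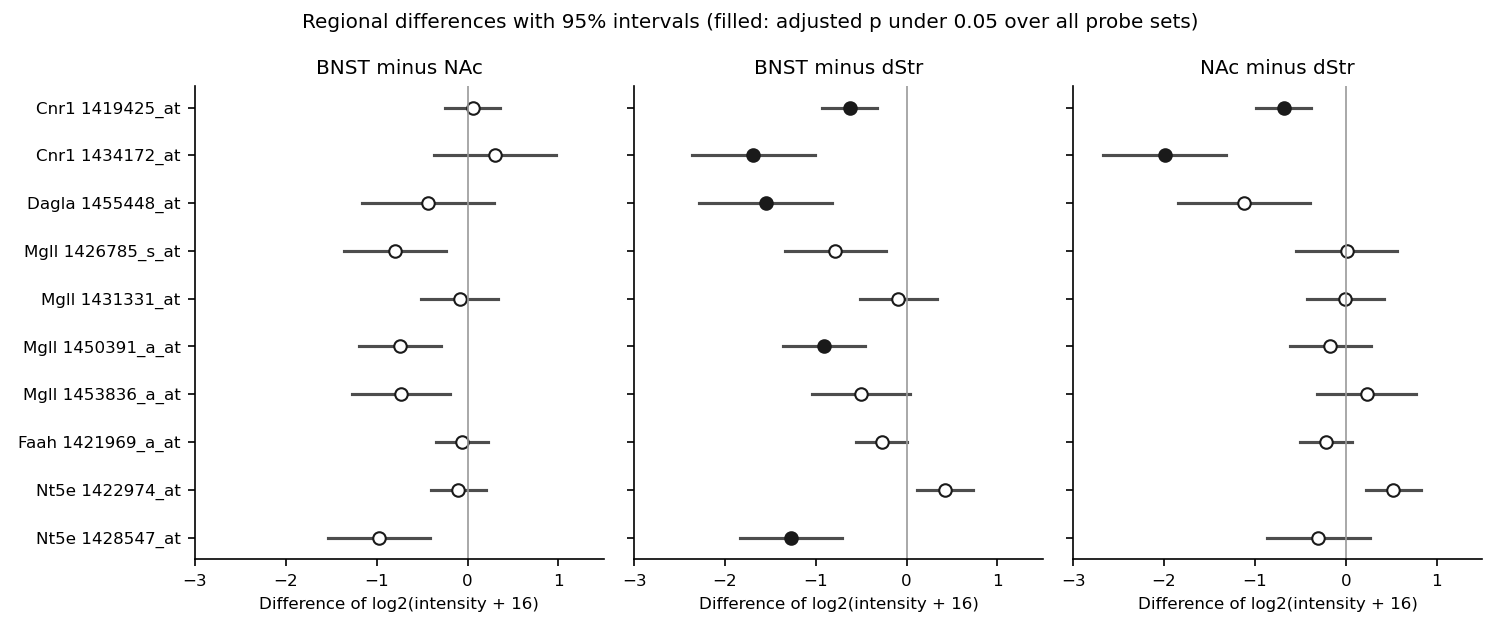
Differences of log2(intensity + 16) for the 10 kept probe sets, as BNST minus NAc, BNST minus dStr and NAc minus dStr, with 95% intervals from the limma fit over all 29293 kept probe sets. Filled points passed an adjusted p of 0.05. Between BNST and dStr 5 probe sets are filled, all to the left of 0, between NAc and dStr the 2 Cnr1 probe sets, and between BNST and NAc 0.

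Nt5e, which makes extracellular adenosine, gave opposite readings from its 2 kept probe sets. The brighter, 1422974_at, read 313, 311 and 352 in BNST, 392, 312 and 349 in NAc, and 211, 250 and 255 in dStr. The dimmer, 1428547_at, read 126, 55.9 and 56.3 in BNST, 197, 155 and 137 in NAc, and 186, 198 and 227 in dStr. The dStr arrays were the lowest of the 9 on the first, and BNST was the lowest region, without overlap, on the second.

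On 1422974_at, which represented the gene, the mean was 325 ± 23.4 in BNST, 351 ± 39.9 in NAc and 239 ± 24.4 in dStr (SD, n = 3 each). The differences from dStr were 0.42 for BNST (SE 0.14, limma adjusted p = 0.0651) and 0.52 for NAc (SE 0.14, limma adjusted p = 0.1), and neither passed. The first passed in 4 of 21 alternatives, among them quantile normalisation (0.58, limma adjusted p = 0.0311) and the fit without NAc 1 (limma adjusted p = 0.0478). On 1428547_at, means were 79.4 ± 40.4 in BNST, 163 ± 30.6 in NAc and 203 ± 20.9 in dStr (SD, n = 3 each). This probe set was 2.42-fold lower in BNST than in dStr (limma adjusted p = 0.0087 over all probe sets), a call that held in all 19 alternatives. It was dim in BNST, where arrays 2 and 3, at 55.9 and 56.3, lay below their 40th percentiles of 71.5 and 72.1. The other 7 arrays lay above theirs. The 1.96-fold lower level in BNST than in NAc did not pass (limma adjusted p = 0.097) and passed without BNST 1 (0.00469) and without BNST 1 and NAc 1 (0.00163).

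The log2 gap of 1422974_at over 1428547_at within each array was 1.21 to 2.35 in BNST, 0.94 to 1.25 in NAc and 0.16 to 0.32 in dStr. Neither BNST nor NAc overlapped dStr (exact permutation test, 2-sided, p = 0.1, the smallest possible). Averaging both probe sets gave -0.43 between BNST and dStr (limma adjusted p = 0.1), with the sign of the dimmer one, so no direction is given for Nt5e as a gene. The remaining probe set, 1459023_at, was below the filter at 15.7 to 65.1 over the 9 arrays and overlapped between all regions.

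By gene, 0 of the 5 tested members passed between BNST and NAc, where 2.24% of all genes did, and 0 had an unadjusted limma p under 0.05. Between BNST and dStr 2 of 5 passed, both lower in BNST (Cnr1 and Dagla), where 14.3% of all genes passed and 9.33% were lower. Between NAc and dStr 1 of 5 passed, lower in NAc (Cnr1), where 2.05% passed and 1.1% were lower. Arrays did not overlap for 0, 4 and 4 of the 5 members in these comparisons, where this held for 14.6%, 36.4% and 19.1% of genes. The median difference of the members was -0.09, -0.27 and -0.22 in the 3 comparisons, beside -0.05, -0.06 and -0.01 over all genes.

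By probe set, 0 of 10 passed between BNST and NAc, where 1.81% of all kept probe sets did and 4 of the 10 had an unadjusted limma p under 0.05. Between BNST and dStr 5 of 10 passed, all lower in BNST, where 13.6% passed and 9.31% were lower. They came from 4 genes, with Cnr1 counted 2 times and Dagla, Mgll and Nt5e 1 time each. Between NAc and dStr 2 of 10 passed, both of Cnr1, where 1.68% passed and 0.959% were lower. Arrays did not overlap for 4, 9 and 5 of the 10 probe sets, where this held for 14.4%, 35.9% and 19% of all kept probe sets. Among the 3 regions, the limma F test passed for Cnr1 (adjusted p = 0.00369) and Dagla (adjusted p = 0.0256) and for 10.3% of all genes, and missed for Nt5e (adjusted p = 0.0634), Faah (adjusted p = 0.358) and Mgll (adjusted p = 0.944). Without BNST 1 and NAc 1 the counts were 1, 3 and 2 of 5 genes, where 15.5%, 29.2% and 4.98% of all genes passed. Dagla passed in all 3, Cnr1 in both comparisons with dStr, and Nt5e, on 1422974_at, was higher in BNST than in dStr.

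Cnr1 and Dagla levels moved together over the 9 arrays, with a correlation of 0.906 between 1434172_at and 1455448_at. All correlations here are over the same 9 arrays in 3 regions, so the points share region and library. The tested genes most like Cnr1 in pattern were Casq2 (r = 0.985), Dab2ip (r = 0.980) and Ccnd2 (r = 0.974). Ccnd2, a cyclin, averaged 261 ± 48.0 in BNST, 203 ± 43.4 in NAc and 834 ± 85.7 in dStr (SD, n = 3 each), the order seen for Cnr1. The genes most like Dagla were Cd48 (r = 0.991), Cyp46a1 (r = 0.991) and Ogfrl1 (r = 0.990). For Faah they were Bid, Myo5b and Stt3a (r = 0.964 to 0.971), for Nt5e on 1422974_at Gatd1, Rps3 and Dzank1 (r = 0.962 to 0.970), and for Mgll on 1431331_at E2f8, Bphl and Saa1 (r = 0.954 to 0.965). Cd48 was dim, with means of 50.6 in BNST, 57.1 in NAc and 82.7 in dStr, beside 40th percentiles of 71.5 to 76.6.

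The Cnr1 and Dagla levels can be set beside the projection neuron genes. BNST had the lowest marker sum. Cnr1 in BNST overlapped NAc, whose marker sum was higher on every array. Within BNST, array 1 had both the highest marker sum, 8486, and the highest Cnr1 and Dagla intensities. Within NAc, array 1 had the highest marker sum, 18062, and the lowest Cnr1 and Dagla intensities. The part of projection neuron content in the Cnr1 and Dagla levels was not tested. The indirect-pathway markers summed to 1738 to 3276 in BNST, 5213 to 7310 in NAc and 7394 to 8566 in dStr over 5 genes. The direct-pathway markers summed to 1934 to 3877 in BNST, 6670 to 8722 in NAc and 7463 to 8581 in dStr over 7 genes. Bright genes weigh most in such sums. Between BNST and dStr, 4 of the 5 indirect-pathway genes were lower in BNST and 1 did not pass, with a median difference of -2.66. Of the 7 direct-pathway genes 3 were lower and 4 did not pass, with a median difference of -0.34. Between BNST and NAc, 3 of the 5 and 3 of the 7 were lower in BNST, with medians of -1.34 and -1.08.

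Genes of other cells also differed. The sum of 8 astrocyte genes was 11835 to 13682 in BNST, 9138 to 9659 in NAc and 7710 to 8406 in dStr. That of 7 microglia genes was 2593 to 3285 in BNST, 3417 to 4006 in NAc and 4422 to 4558 in dStr, and that of 5 ependyma and choroid plexus genes was 1347 to 2923 in BNST, 350 to 375 in NAc and 351 to 378 in dStr. The sum of 4 endothelium genes was 842 to 952 in BNST, 826 to 1143 in NAc and 1061 to 1144 in dStr, and that of 4 meninges genes was 892 to 940 in BNST, 674 to 771 in NAc and 658 to 773 in dStr. Sums of oligodendrocyte, interneuron and general neuron genes, and the 1 cortical pyramidal neuron gene tested, overlapped between BNST and dStr. Of the 5 general neuron genes, 1 was higher in BNST than in dStr (Gad2, 0.55, limma adjusted p = 0.0451). The 2 lower ones were Rbfox3 (-0.68, limma adjusted p = 0.032) and Snap25 (-0.57, limma adjusted p = 0.0438). In these lists 0 tested genes stood at the floor on all arrays. The part of these differences in the member results was not tested.

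**Figure D3:**
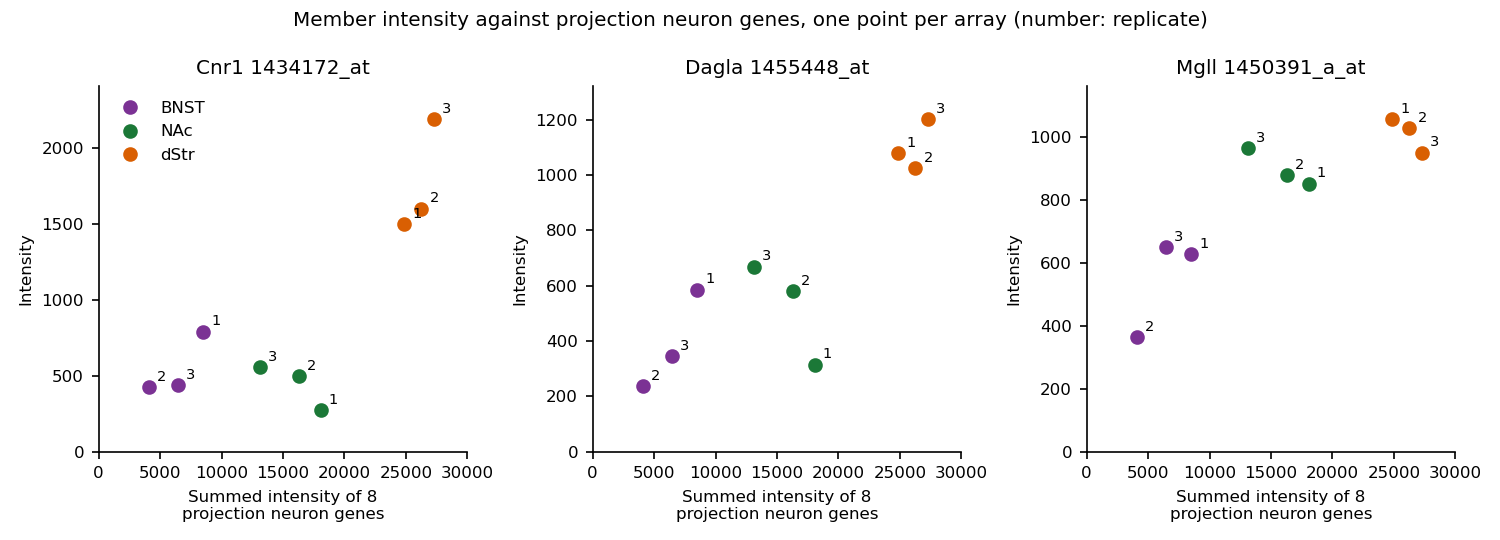
Intensity of Cnr1 1434172_at, Dagla 1455448_at and Mgll 1450391_a_at (the probe set of each gene with the largest BNST to dStr difference, vertical axes) against the summed intensity of 8 projection neuron genes (horizontal axes), 1 point per array with its replicate number. For Cnr1 the NAc arrays lie at 274 to 557 over marker sums of 13129 to 18062, level with the BNST arrays, and the dStr arrays stand apart at 1497 to 2189.

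Of 18 further adenosine genes, 12 were tested, and most did not pass. In BNST 1 was higher and 0 lower than in NAc, and 2 were higher and 1 lower than in dStr. Between NAc and dStr 0 passed. Over all genes 2.24%, 14.3% and 2.05% passed in these 3 comparisons, in either direction. Entpd2, an ectonucleotidase that hydrolyses ATP outside cells, upstream of Nt5e, averaged 545 ± 78.6 in BNST, 316 ± 24.4 in NAc and 290 ± 20.5 in dStr (SD, n = 3 each). It was higher in BNST than in NAc by 0.75 (limma adjusted p = 0.0238) and than in dStr by 0.87 (limma adjusted p = 0.00263). The first call was lost without BNST 3, NAc 1, NAc 2 or dStr 3, each in turn, with limma adjusted p of up to 0.111, while the second held without any 1 array. Pnp, the purine nucleoside phosphorylase that acts on the adenosine product inosine, was higher in BNST than in dStr, at 358 ± 46.1 against 206 ± 44.3 (0.77, limma adjusted p = 0.0112; up to 0.0582 without BNST 3, dStr 1 or dStr 3). Slc29a2, a nucleoside transporter, was lower in BNST than in dStr, at 157 ± 7.41 against 214 ± 14.5 (-0.41, limma adjusted p = 0.0416), and that call was lost when any array other than NAc 1 or NAc 3 was left out, and without BNST 1 and NAc 1 (0.0519). Adora3, the adenosine receptor that was measured, averaged 142 ± 11.9 in BNST, 136 ± 23.9 in NAc and 161 ± 23.8 in dStr, and no comparison passed. The median difference of the list was -0.05, -0.06 and -0.03 in the 3 comparisons, close to that of all genes.

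Of 18 further endocannabinoid genes, 15 were tested. Between BNST and NAc 0 passed, between BNST and dStr 2 were higher and 2 lower in BNST, and between NAc and dStr 1 was higher in NAc. The shares over all genes were 2.24%, 14.3% and 2.05%, in either direction. Fabp7, a fatty acid binding protein of astrocytes and radial glia that carries anandamide inside cells, averaged 1819 ± 91.9 in BNST, 1267 ± 114 in NAc and 546 ± 114 in dStr (SD, n = 3 each). It was 3.30-fold higher in BNST (limma adjusted p = 0.000124) and 2.31-fold higher in NAc (limma adjusted p = 0.00361) than in dStr. Astrocyte gene sums were also higher in BNST and in NAc than in dStr, though bright genes weigh most in them. Of the 8 astrocyte genes, 4 passed against dStr for BNST, all upward, with a list median of 0.73. For NAc against dStr 0 of 8 passed, with a list median of 0.16. The part of astrocyte content in the Fabp7 result was not tested. Cnrip1, which encodes a protein that binds the CB1 receptor tail, was 1.95-fold higher in BNST than in dStr, at 670 ± 119 against 333 ± 33.2 (limma adjusted p = 0.0249), where Cnr1 itself was lower. That call was lost without BNST 1, BNST 3 or any 1 dStr array (limma adjusted p of up to 0.1).

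Plcb1, a phospholipase that yields the diacylglycerol used by Dagla, was lower in BNST than in dStr, at 813 ± 137 against 1937 ± 244 (-1.24, limma adjusted p = 0.0213). Gde1, a phosphodiesterase of an alternative anandamide route, was lower too, at 729 ± 140 against 1095 ± 93.2 (-0.59, limma adjusted p = 0.0327). The Plcb1 call was lost without BNST 2, BNST 3 or any 1 dStr array, and the Gde1 call without BNST 2 or any 1 dStr array. Daglb, the second diacylglycerol lipase, averaged 65.1 ± 11.8 in BNST, 60.02 ± 5.98 in NAc and 85.3 ± 7.41 in dStr and did not pass (-0.33 between BNST and dStr, limma adjusted p = 0.164). Cnr2, the cannabinoid receptor of immune cells, did not pass in any comparison, at 87.5 ± 6.91 in BNST, 86.5 ± 4.65 in NAc and 79.1 ± 12.1 in dStr. The list median was 0.06, 0.03 and -0.01 in the 3 comparisons.

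**Figure D4:**
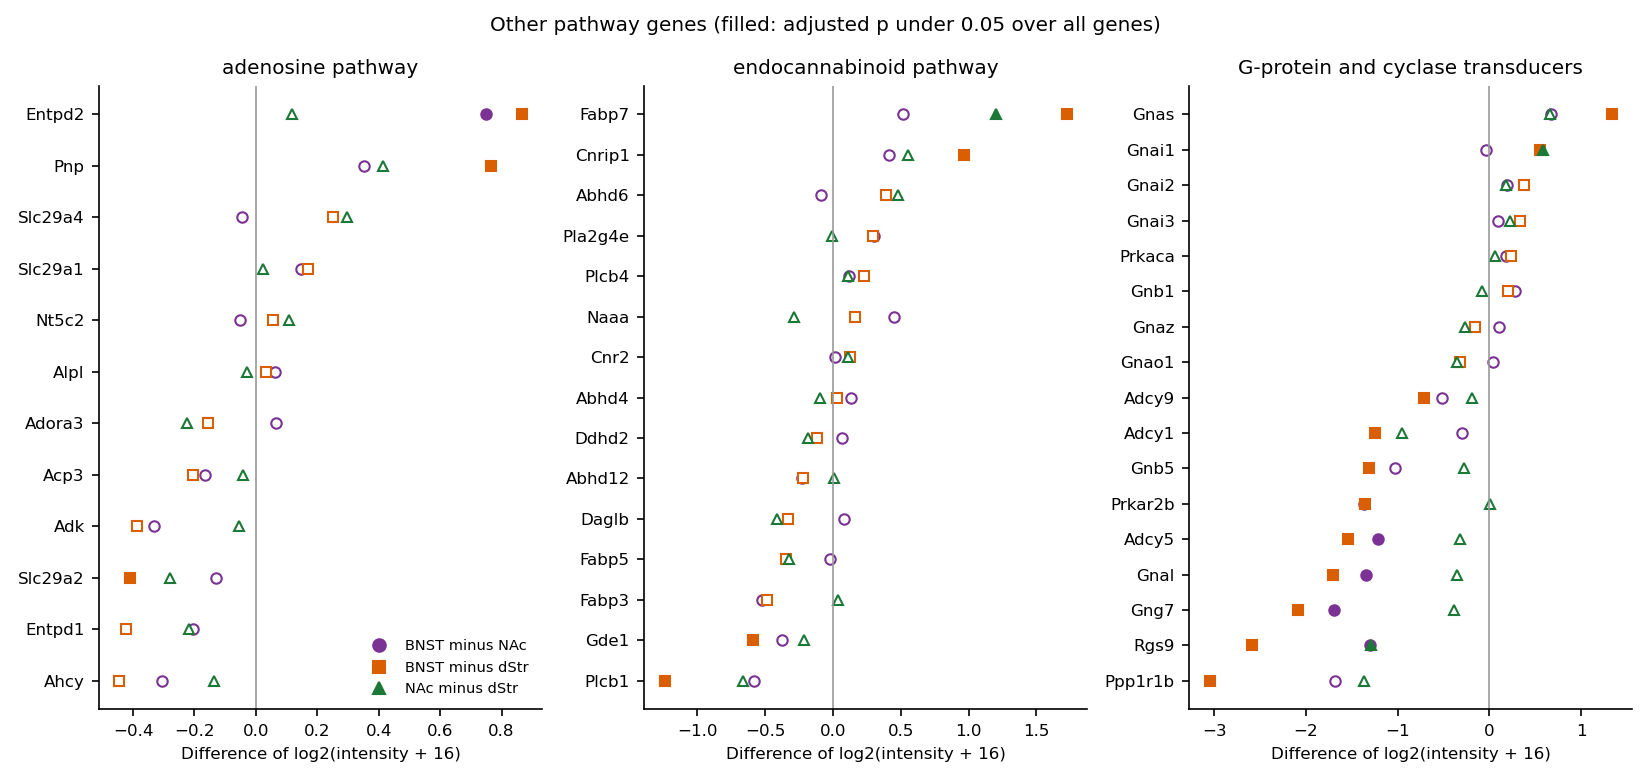
Differences of log2(intensity + 16) for the tested genes of the adenosine pathway, the endocannabinoid pathway and the G-protein and cyclase transducers, 1 row per gene, with BNST minus NAc as circles, BNST minus dStr as squares and NAc minus dStr as triangles, filled where the adjusted p over all genes was under 0.05. Entpd2 and Fabp7 lie furthest to the right in the first 2 panels, and 9 transducers are lower in BNST than in dStr.

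A further list held genes of the proteins that carry receptor signals to cyclic AMP. Of 17 tested, 0 were higher and 5 lower in BNST than in NAc, 2 higher and 9 lower in BNST than in dStr, and 1 higher and 1 lower in NAc than in dStr, where 2.24%, 14.3% and 2.05% of all genes passed in either direction. The median differences were -0.30, -0.71 and -0.27, beside -0.05, -0.06 and -0.01 over all genes. Ppp1r1b, Rgs9 and Gng7, which are among the 9 lower in BNST than in dStr, are also in the projection neuron list above. Adcy5, the main adenylyl cyclase of the striatum, averaged 1249 ± 323 in BNST, 2888 ± 567 in NAc and 3580 ± 308 in dStr (SD, n = 3 each), and was lower in BNST than in NAc (-1.22, limma adjusted p = 0.0157; lost without BNST 3 or NAc 2) and than in dStr (-1.54, limma adjusted p = 0.000952). Gnal, the stimulatory G protein that couples Adora2a in the striatum, was lower in BNST than in dStr (-1.70, limma adjusted p = 0.00349). It was also lower in BNST than in NAc (-1.35, limma adjusted p = 0.0417), a call lost when any array other than BNST 1 or NAc 1 was left out. The others lower in BNST than in NAc were Gng7 (-1.70, limma adjusted p = 0.00273), Prkar2b (-1.37, 0.00835) and Rgs9 (-1.30, 0.00635). Of these calls, only that on Prkar2b was lost when 1 array was left out, BNST 3. Rgs9 was also the gene lower in NAc than in dStr (-1.29, limma adjusted p = 0.00608), which held without any 1 array.

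The inhibitory subunit gene Gnai1, of the family that couples CB1, ran the other way, at 3085 ± 316 in BNST, 3147 ± 177 in NAc and 2089 ± 116 in dStr (SD, n = 3 each). It was higher in BNST than in dStr (0.56, limma adjusted p = 0.0159; lost without BNST 3, dStr 1 or dStr 3) and higher in NAc than in dStr (0.59, limma adjusted p = 0.0461; lost when any array other than BNST 1 or BNST 2 was left out). Gnas, the stimulatory subunit of most cells, was higher in BNST than in dStr, at 4610 ± 377 against 1817 ± 155 (1.34, limma adjusted p = 0.000954). The other genes lower in BNST than in dStr were Ppp1r1b, Rgs9, Gng7, Prkar2b, Gnb5, Adcy1 and Adcy9, at -3.05 to -0.71, and the call on Gnb5 was lost without BNST 2 or dStr 2. Without BNST 1 and NAc 1 the counts of the transducers were 1 higher and 8 lower, 2 higher and 9 lower, and 2 higher and 3 lower in the same 3 comparisons. On the same 7 arrays, those of the adenosine list were 1 and 1, 2 and 2, and 0 and 0, and those of the endocannabinoid list 1 and 1, 2 and 3, and 2 and 1. Calls rose over all genes too, to 15.5%, 29.2% and 4.98% in either direction.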

How the data were processed

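RNA from 9 mouse brain punches was read on Affymetrix Mouse430_2 arrays, 3 per region, with regions and replicate numbers taken from the labels. The authors deposited 1 table of linear intensity values for 45037 probe sets, with low signals set to 15; how they were summarised and scaled is not stated in the labels or the table, and the scaling was left as it was. Probe sets were named from the platform annotation, which gave 1 symbol to 34945, several to 932 and none to 9160. The filter needed 3 or more arrays over their 40th percentile. Only probe sets with 1 symbol were matched to genes. Of these, the kept probe set of highest average level on the 9 arrays stood for its gene. Values were tested as log2(intensity + 16), a scale that understates the folds of dim genes.

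The test was limma 3.58.1 (R 4.3.3), with 1 model over all 9 arrays, 6 residual degrees of freedom and empirical Bayes moderation. The p-values are 2-sided and Benjamini-Hochberg adjusted over all 14208 genes, or over all 29293 kept probe sets, with a threshold of 0.05. The fit was tested on simulated data. The number of arrays limits the precision. The members, gene lists and the array pair left out together were chosen with earlier results of these data known. The text names all members with each probe set, up to 4 passing genes per list, comparison and direction, and for each member the 3 tested genes of highest correlation over the 9 arrays. Adora3, Cnr2 and Daglb, which did not pass, and Adcy1, Adcy5, Adcy9 and Gnb5, beyond the first 4 of their list, fall outside that rule and were picked with their values in view. The settings varied were quantile normalisation, median centring, no filter, a 60th percentile filter, probe-set means, unsuffixed probe sets, a trended robust prior, the replicate number as a block, pseudocounts of 1 and 64, each array left out, BNST 1 and NAc 1 left out together, and the arrays of the pair alone.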

Additional observations from a re-analysis of the deposited data

How the results depend on the processing

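The Cnr1 and Dagla calls against dStr by gene kept their direction and passed in every alternative run. The reversals concerned differences that did not pass with all arrays in the fit, such as 0.42 for Nt5e between BNST and dStr and 0.30 for Cnr1 between BNST and NAc. With quantile normalisation the BNST minus NAc difference was 0.016 for Nt5e, 0.047 for Faah and 0.024 for Mgll, and BNST minus dStr was 0.012 for Mgll. That normalisation moved the median BNST minus dStr difference of all genes to 0.06, against -0.06 as deposited, and the calls to 1266 higher and 1166 lower, against 702 and 1325, while median centring gave 916 and 1205. Mgll NAc minus dStr was 0.021 with median centring and 0.018 with probe-set means, which also gave -0.43 for Nt5e between BNST and dStr. Without BNST 1 and NAc 1 together, BNST minus NAc was 0.0043 for Nt5e and -0.28 for Cnr1, and NAc minus dStr was 0.094 for Mgll, -0.010 for 1426785_s_at and -0.041 for 1453836_a_at. Members called were then 1 between BNST and NAc and 2 between NAc and dStr, genes called 2203, 4150 and 707 in the 3 comparisons and 3686 by F test, and probe sets called 4268, 8450 and 1191. The cause of these shifts was not tested.

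With each array left out in turn, genes called ran from 101 to 617 between BNST and NAc, 1112 to 2674 between BNST and dStr, 112 to 419 between NAc and dStr and 740 to 1962 by F test, and probe sets from 107 to 1193, 2070 to 5480 and 126 to 667. Differences ran from -0.11 to 0.025 for Faah between BNST and NAc, for Mgll from -0.19 to 0.011, -0.30 to 0.039 and -0.21 to 0.13 in the 3 comparisons, and between NAc and dStr from -0.072 to 0.16 for 1426785_s_at and -0.041 to 0.38 for 1453836_a_at. Fewer arrays enter each such fit. With no filter, probe sets called were 218 between BNST and NAc and 297 between NAc and dStr. With the arrays of the pair alone, 71 genes and 85 probe sets passed between BNST and NAc. With the replicate block, genes called were 196 between BNST and NAc, 183 between NAc and dStr and 953 by F test, and probe sets 278 and 232. Same-numbered arrays correlated at -0.51 to 0.26 after removal of region means, so the numbers were not taken as pairs. Signal near background leaves Napepld and 1 probe set each of Faah and Nt5e untested.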
